A study of Arabidopsis thaliana with 50 samples.

Results

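The genes described here are the cold-response factors CBF1, CBF2 and CBF3, their relative DDF1, and 6 cold-regulated genes, COR15A, COR15B, COR47, RD29A, RD29B and GolS3. They were chosen by gene identity, as AT4G25490, AT4G25470, AT4G25480, AT1G12610, AT2G42540, AT2G42530, AT1G20440, AT5G52310, AT5G52300 and AT1G09350 in that order. All 10 were among the 18231 genes listed in the authors' deposited table.

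CBF1, CBF2 and CBF3 are AP2/ERF transcription factors that are induced within a short time of cold exposure, and their transcripts are also set by the circadian clock and touched off by handling and other rapid stresses. They bind the CRT/DRE element, whose core letters are CCGAC, and switch on cold-regulated genes that encode protective proteins and enzymes of compatible solutes. DDF1 belongs to the same DREB1 family and is known for its induction by salt and for lowering gibberellin. Several target genes also carry the abscisic acid response element (ABRE, core letters ACGTG), so that drought and abscisic acid raise them without CBF.

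Messenger RNA was sequenced from apical (tip-side) and basal (stem-side) parts of fully expanded rosette leaves of 7-week-old Arabidopsis thaliana, accession Col-0, in 50 libraries. The labels name no cold treatment, and all plants were grown at 22 °C with 8 h of light a day, at 130 µmol photons per square metre and second and 50% humidity. Each of the 10 groups, 5 lines by 2 leaf parts, held 5 pools of 7 leaf parts, which the labels call biological replicates. What the table holds is, for each gene, 4 log2 fold changes over wild type, all of apical parts, and p-values of the authors over all lines and both leaf parts.

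The single mutant pp2a-b’γ (b’γ here) is disrupted in the regulatory B’γ subunit of protein phosphatase 2A. The double mutant pp2a-b’γζ (b’γζ) is also mutated in the related B’ζ subunit, and pp2a-b’γ sid2 (b’γ sid2) also carries sid2, which disrupts ICS1, an enzyme gene of salicylic acid synthesis. In complemented plants (pp2a-b´γ P35S:PP2A-B’γ) the b’γ mutant expresses B’γ from the constitutive viral 35S promoter, not from its native one. The wild type (WT) was Col-0, and it was the common control of the 4 deposited comparisons. Yellowing and cell death were seen in apical leaf parts of b’γ, per the labels, and no symptoms in its basal parts. Whether the complemented plants are 1 clone was not given in the sources used here.

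With no values per library in use here, SDs between libraries cannot be given, and depth is unknown. In the authors' deposited table B’γ (AT4G15415) had log2 fold changes of -0.69 in b’γ, -0.46 in b’γζ, -0.72 in b’γ sid2 and 0.35 in complemented plants, all under 2-fold. B’ζ (AT3G21650) was at -2.59 in b’γζ in the same deposited table, and ICS1 (AT1G74710) at -0.97 in b’γ sid2. Whether the counted RNA reaches beyond each lesion is not known, so these values check the labels only in part. All 6 markers of senescence and cell death rose in b’γ, where 7.92% of all listed genes rose. Their deposited log2 fold changes there were between 3.76 and 13, and none passed in another line. The highest were 13.02 for SAG12, a senescence protease, 9.02 for the factor WRKY75, 8.43 for PR1, a marker of salicylic acid responses, and 6.67 for SAG13, all in b’γ in the deposited table. The 3 mesophyll markers looked at were listed, but the table gives no levels, so the tissue label could not be checked by level. In bulk leaf parts, fewer cells of a type and less RNA per cell cannot be told apart.

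A standard error is given in up to 2 forms, because the deposited p-values fix the residual spread of a gene only within bounds. The equal-parts standard error is the one that follows if the lines differed as much in basal as in apical parts, and the largest standard error is the greatest that the p-values allow. A gene "rose" or "fell" where its change was at least 2-fold (log2 of 1) and its contrast had a Benjamini-Hochberg adjusted p under 0.05 with the largest error, called the largest-error test. Its residual degrees of freedom come from all libraries, and since it assumes normal errors and no exact test could be run, its p-values are not printed. A value that misses this strict test is not thereby shown to be unchanged.

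All 3 CBF genes were lower in all 4 lines than in WT, and lowest in b’γ sid2. In the authors' deposited table CBF1 had log2 fold changes of -1.62 in b’γ, -1.72 in b’γζ, -3.15 in b’γ sid2 and -1.47 in complemented plants. CBF2 had deposited values of -1.63 in b’γ, -1.71 in b’γζ, -3.39 in b’γ sid2 and -1.98 in complemented plants. The deposited values of CBF3 were -1.54 in b’γ, -1.73 in b’γζ, -3.09 in b’γ sid2 and -1.50 in complemented plants. The b’γ sid2 values were therefore 8.88-fold below WT for CBF1, 10.5-fold for CBF2 and 8.51-fold for CBF3, and the other lines lay between 2.76-fold and 3.94-fold below WT. All 4 comparisons share the WT pools, so a direction common to them is not found independently in each.

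The precision of the 3 genes differed. CBF3 had standard errors of 0.171 (equal parts) and 0.208 (largest), and it fell in all 4 lines. Its 95% intervals with the largest error were -1.96 to -1.12 in b’γ, -2.15 to -1.31 in b’γζ, -3.51 to -2.67 in b’γ sid2 and -1.92 to -1.08 in complemented plants. CBF1, with a largest error of 0.786, fell in b’γ sid2, with an interval from -4.74 to -1.56. CBF2, with a largest error of 0.915, also fell in b’γ sid2, with an interval from -5.24 to -1.54. In the other 3 lines CBF1 and CBF2 did not pass the largest-error test. With the equal-parts error CBF1 also passed in b’γ and b’γζ, and CBF2 in b’γ and complemented plants. The intervals with the largest error reached from -3.21 to -0.03 for CBF1 in b’γ and from -3.47 to 0.22 for CBF2 in b’γ.

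The 3 genes stand in a row on chromosome 4, in the order CBF2, CBF3, CBF1, all on the minus strand, with 1774 and 2379 bases between neighbours and 0 protein-coding genes in these gaps in the TAIR10.1 annotation. Their coding sequences are 86.3% identical between CBF1 and CBF2, 85.0% between CBF1 and CBF3 and 86.7% between CBF2 and CBF3. The longest identical run was 68 bases between CBF1 and CBF2 and 33 bases in both other pairs. Read length and the treatment of reads that match several genes are not given in the sources used here, so reads may have been split among the 3 copies, and their values are uncertain to that extent. DDF1 shares between 54.8% and 56.2% with the 3.

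Clock factors bind the evening element. The letters searched here were a short form of it, AAATATCT, and the full element is longer. This short form was found once in the 250 bases before the annotated start of each CBF gene, and in none of the other 7 members. The stretches below hold the short form in capitals, with 16 bases on either side, and none of them holds the full element. They are read 5′ to 3′ on the strand of the gene from the RefSeq TAIR10.1 genome. They are shown because clock genes are set beside the CBF genes further on. For CBF1 (chr4:13023054-13023093, minus strand) the short form lies on the opposite strand, so its reverse complement appears. CBF2 is at chr4:13016263-13016302 and CBF3 at chr4:13019576-13019615, both on the minus strand.
CBF1: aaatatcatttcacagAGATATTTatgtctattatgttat
CBF2: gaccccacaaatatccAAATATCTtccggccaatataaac
CBF3: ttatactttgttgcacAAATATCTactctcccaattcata

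Of the 27437 windows of this length before protein-coding genes, 4.79% hold the short form AAATATCT on either strand. The CBF2 window also held ACGTG, as a palindrome, and CCGCGT, the letters of the CM2 element that CAMTA factors bind, which 1.76% of all windows hold. A match of letters is a description of the window and shows no binding. A window without them says nothing of sites farther upstream or past the annotated start.

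DDF1 did not follow the CBF genes. Its deposited log2 fold changes were -0.29 in b’γ, 4.84 in b’γζ, 1.01 in b’γ sid2 and 1.06 in complemented plants. DDF1 was 28.6-fold above WT in b’γζ and rose there. The spread behind this value was wide: the residual SD of DDF1 lay between 1.62 and 2.04 log2 units, where the ranges of COR15B and RD29B reached up to 1.89 and 1.75, and its 95% interval in b’γζ reached from 2.24 to 7.44. Whether 1 pool carried it could not be seen without values per library. DDF2, the closest relative of DDF1, had deposited values of 0.00 in b’γ, 2.67 in b’γζ, 0.23 in b’γ sid2 and 0.01 in complemented plants, and passed in none of them.

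**Figure D1:**
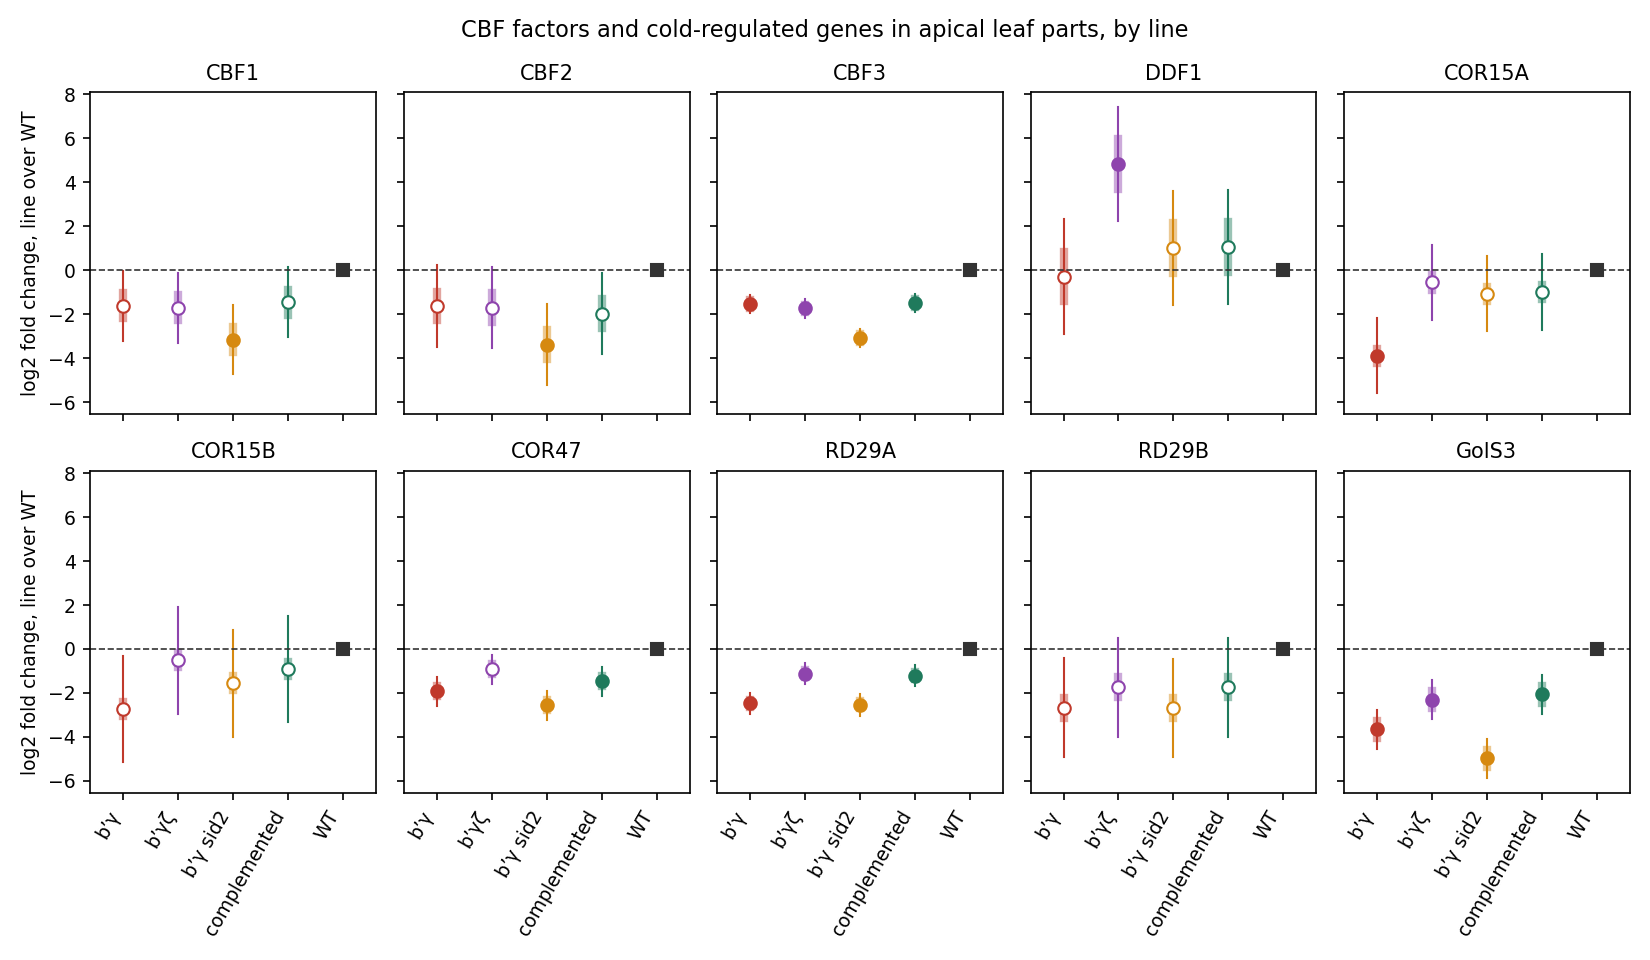
Log2 fold change of each gene in apical leaf parts of 4 lines over WT (black square at 0). Points are the deposited values, filled where the gene rose or fell, thick bars are 1 equal-parts standard error and thin lines the 95% interval with the largest error. CBF3, RD29A and GolS3 lie below 0 in all 4 lines with filled points, COR15A has its filled point in b’γ alone, and DDF1 stands at 4.84 in b’γζ.

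Among the target proteins, COR15A and COR15B had their lowest values in b’γ, and COR47 and RD29A were about as low in b’γ sid2 as in b’γ or lower. COR15A encodes a small chloroplast protein that protects membranes during freezing. Its deposited values were -3.89 in b’γ, -0.56 in b’γζ, -1.08 in b’γ sid2 and -0.99 in complemented plants. COR15A was thus 14.8-fold below WT in b’γ and fell there (largest standard error 0.846, 95% interval from -5.60 to -2.17), and it passed the largest-error test in no other line against WT. With the equal-parts error it also passed in b’γ sid2.

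COR15B, its neighbour and close copy, had deposited values of -2.72 in b’γ, -0.52 in b’γζ, -1.56 in b’γ sid2 and -0.92 in complemented plants. The order of the lines was the same as for COR15A. None of these values passed the largest-error test, with an interval from -5.14 to -0.30 in b’γ. With the equal-parts error, 0.318 against 1.2, COR15B passed in b’γ and b’γ sid2, so the call for COR15B rests on how far its basal parts followed the apical ones. The 2 coding sequences are 82.6% identical, with an identical run of 31 bases, and the annotated genes lie 7 bases apart on chromosome 2, so reads may also have been split between them.

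COR47, a dehydrin, had deposited values of -1.92 in b’γ, -0.92 in b’γζ, -2.55 in b’γ sid2 and -1.46 in complemented plants. It fell in b’γ, b’γ sid2 and complemented plants, with a largest standard error of 0.327. In b’γζ it was 1.89-fold below WT, short of the 2-fold limit. RD29A, a hydrophilic protein whose promoter is the classical reporter of cold and drought signals, had deposited values of -2.47 in b’γ, -1.12 in b’γζ, -2.54 in b’γ sid2 and -1.21 in complemented plants. RD29A fell in all 4 lines, with a largest standard error of 0.241.

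RD29B lies 1185 bases before RD29A on chromosome 5 and is known to answer mainly to abscisic acid. Its deposited values were -2.68 in b’γ, -1.74 in b’γζ, -2.68 in b’γ sid2 and -1.74 in complemented plants. None passed the largest-error test, whereas all 4 passed with the equal-parts error. The equal-parts error of RD29B was 0.455 and the largest 1.11, so a drop of this size could not be separated from the spread that the p-values still allow.

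GolS3, a galactinol synthase that makes the first building block of the raffinose sugars and is known as a CBF target, had the lowest value of all members against WT in 3 of the 4 lines. Its deposited values were -3.66 in b’γ, -2.30 in b’γζ, -4.98 in b’γ sid2 and -2.07 in complemented plants, or 12.6-fold, 4.93-fold, 31.6-fold and 4.20-fold below WT in the same order. GolS3 fell in each, with a largest standard error of 0.447, and its interval nearest to 0 was -2.97 to -1.17, in complemented plants.

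The windows before 4 of the 6 target genes hold CRT/DRE letters, and they are shown because the 4 genes differ in how many they hold and in their values by line. Capitals mark CCGAC and ACGTG on either strand, and where ACGTG overlaps its own complement the run CACGTG is in capitals. Sequences are 250 bases that end just before the annotated gene start, from the RefSeq TAIR10.1 genome, on the strand of the gene. They are chr5:21240467-21240716 (plus) for RD29A, chr5:21236771-21237020 (plus) for RD29B, chr2:17712331-17712580 (minus) for COR15A and chr1:3019389-3019638 (plus) for GolS3.
RD29A: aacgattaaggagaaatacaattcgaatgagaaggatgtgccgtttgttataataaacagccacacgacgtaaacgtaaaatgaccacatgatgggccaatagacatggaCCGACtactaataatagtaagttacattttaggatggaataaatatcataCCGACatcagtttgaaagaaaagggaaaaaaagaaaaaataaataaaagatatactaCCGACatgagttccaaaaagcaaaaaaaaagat
RD29B: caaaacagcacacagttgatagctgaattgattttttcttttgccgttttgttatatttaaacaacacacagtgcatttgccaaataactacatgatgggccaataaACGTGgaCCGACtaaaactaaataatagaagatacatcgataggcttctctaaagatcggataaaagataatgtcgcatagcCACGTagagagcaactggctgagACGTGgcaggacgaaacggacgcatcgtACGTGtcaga
COR15A: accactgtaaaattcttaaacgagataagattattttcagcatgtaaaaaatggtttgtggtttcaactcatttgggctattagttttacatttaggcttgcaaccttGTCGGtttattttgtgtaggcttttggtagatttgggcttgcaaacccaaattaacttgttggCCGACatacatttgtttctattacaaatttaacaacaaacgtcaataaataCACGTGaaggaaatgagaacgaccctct
GolS3: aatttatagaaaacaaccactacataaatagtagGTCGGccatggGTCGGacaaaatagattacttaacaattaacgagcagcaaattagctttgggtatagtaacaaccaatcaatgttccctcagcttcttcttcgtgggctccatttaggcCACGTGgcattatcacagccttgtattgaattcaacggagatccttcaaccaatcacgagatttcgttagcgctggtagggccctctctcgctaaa

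Within these windows RD29A held CCGAC 3 times and ACGTG 0 times, and RD29B held CCGAC once and ACGTG at 4 places. Sites outside the windows, on either side, were not searched, so a count of 0 does not show that a gene lacks the element. COR15A and GolS3 each held CCGAC 2 times and 1 palindromic CACGTG. Of all 27437 windows, 12% hold CCGAC at least once, 1.46% at least 2 times, 22.9% hold ACGTG and 3.39% hold both. Among the 10 members, 4 held CCGAC, 3 held it at least 2 times, 4 held ACGTG and 3 held both. The windows of COR47 and COR15B held neither, and the COR15B window overlaps an annotated exon of COR15A.

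**Figure D2:**
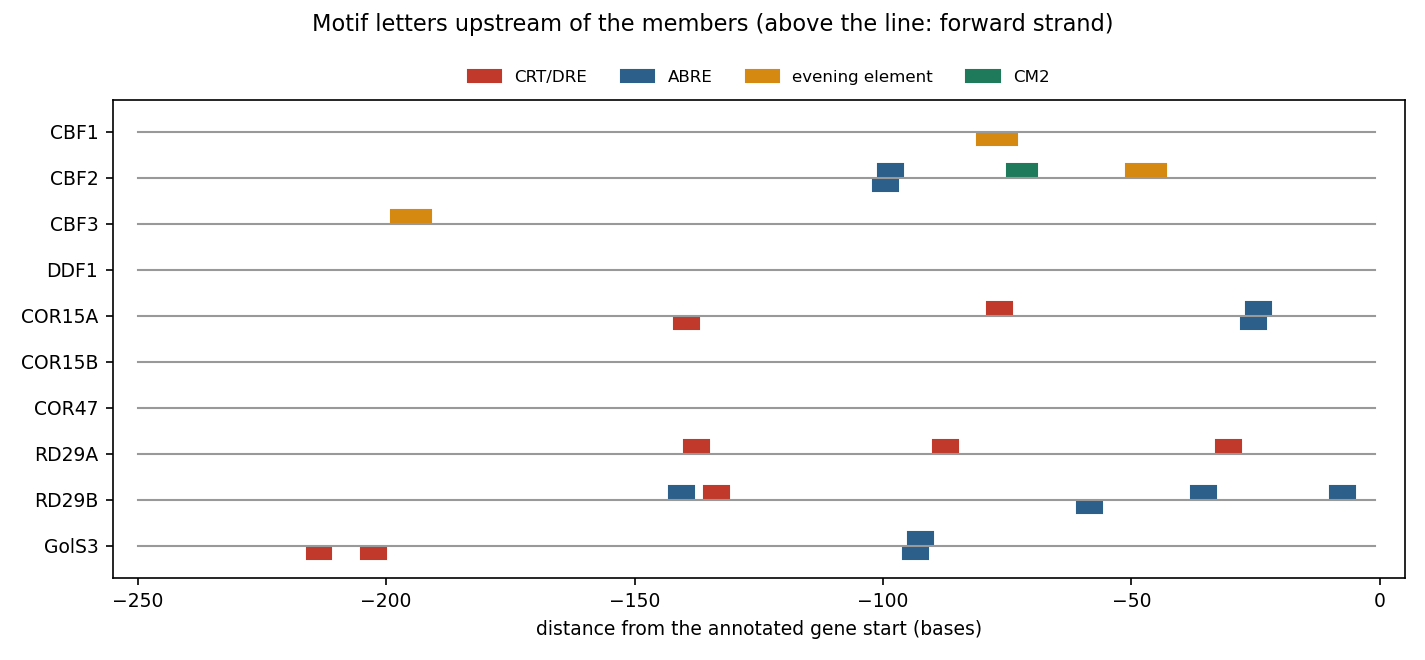
Places of 4 letter motifs in the 250 bases before the annotated start of each member, by distance from the start in bases, with matches on the strand of the gene above the line and on the opposite strand below it. RD29A has 3 CRT/DRE matches and RD29B has 4 ABRE matches. The short form AAATATCT, marked as evening element, appears in the CBF1, CBF2 and CBF3 windows alone among the 10.

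Counted over the members, 9 of 10 were at least 2-fold below WT in b’γ, where 16.2% of all listed genes were, 6 in b’γζ (2.92% of listed genes), 9 in b’γ sid2 (5.56%) and 7 in complemented plants (2.22%). By the stricter reading 5 fell in b’γ (6.4% of listed genes fell), 3 in b’γζ (0.647%), 6 in b’γ sid2 (2.54%) and 4 in complemented plants (0.433%). In the other direction 0 members rose in b’γ (7.92% of listed genes rose), 1 in b’γζ (1.17%), which was DDF1, 0 in b’γ sid2 (2.51%) and 0 in complemented plants (0.285%). The median log2 fold change of the 10 members was -2.20 in b’γ, -1.41 in b’γζ, -2.62 in b’γ sid2 and -1.46 in complemented plants, beside medians of all listed genes of 0.02, -0.01, 0.02 and 0. In complemented plants 9 members were below WT, and 4 of these fell. With the equal-parts error 9 members were lower in b’γ, where 15.5% of listed genes were, and 5 in b’γζ (1.62%).

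Centred on 6 listed reference genes, whose median log2 fold change was 0.18 in b’γ, 9.31% of listed genes fell and 6.76% rose in b’γ, and 0.428% fell and 1.54% rose in b’γζ. The counts of members that passed against WT were the same in number after this centring. Of 10 reference genes chosen, only these 6 were listed, and a gene is listed only with a corrected genotype p of at most 0.05. The 6 thus differ among the lines themselves, so this centring is a limited check.

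Set against b’γ itself, the other lines gave the members different orders. COR15A was 3.33 log2 units higher in b’γζ than in b’γ, 2.81 higher in b’γ sid2 and 2.90 higher in complemented plants, and it rose in all 3 comparisons. The lower ends of its 95% intervals were 1.62, 1.1 and 1.19 in that order. RD29A rose by 1.35 in b’γζ and by 1.26 in complemented plants, and its difference in b’γ sid2 was -0.07 with a 95% interval from -0.56 to 0.42. GolS3 rose by 1.36 in b’γζ and 1.59 in complemented plants, and fell by 1.32 in b’γ sid2. After centring on the reference genes the GolS3 difference in b’γ sid2 was -1.11 and no longer passed. COR47 rose by 1.01 in b’γζ, just past the 2-fold limit, with an interval from 0.35 to 1.67.

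The CBF genes showed another order. CBF3 in b’γζ differed from b’γ by -0.20, with a 95% interval from -0.62 to 0.22, and in complemented plants by 0.04, with an interval from -0.38 to 0.46. In b’γ sid2 it fell by 1.55 against b’γ, with an interval from -1.97 to -1.13. CBF1 and CBF2 differed by -1.53 and -1.76 in b’γ sid2 against b’γ. Neither passed the largest-error test, and both passed with the equal-parts error. DDF1 rose by 5.13 in b’γζ against b’γ, and COR15B and RD29B passed the largest-error test in none of the 3 comparisons. With the equal-parts error COR15B was higher in all 3, and RD29B again passed in none.

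In all, 5 members rose in b’γζ against b’γ (4.49% of listed genes rose) and 0 fell (6.2%). In b’γ sid2 1 rose (6.71%) and 2 fell (7.49%), and in complemented plants 3 rose (4.36%) and 0 fell (6.67%). With the equal-parts error 2 were higher in b’γ sid2 (15.4% of listed genes) and 4 lower (15.3%). Centring on the reference genes moved the shares of listed genes that rose and fell to 9.07% and 4.85% for b’γζ. For b’γ sid2 these shares became 9.9% and 6.13%, and for complemented plants 7.98% and 5.13%. The 3 comparisons share the b’γ pools, and the labels note cell death for those pools alone.

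**Figure D3:**
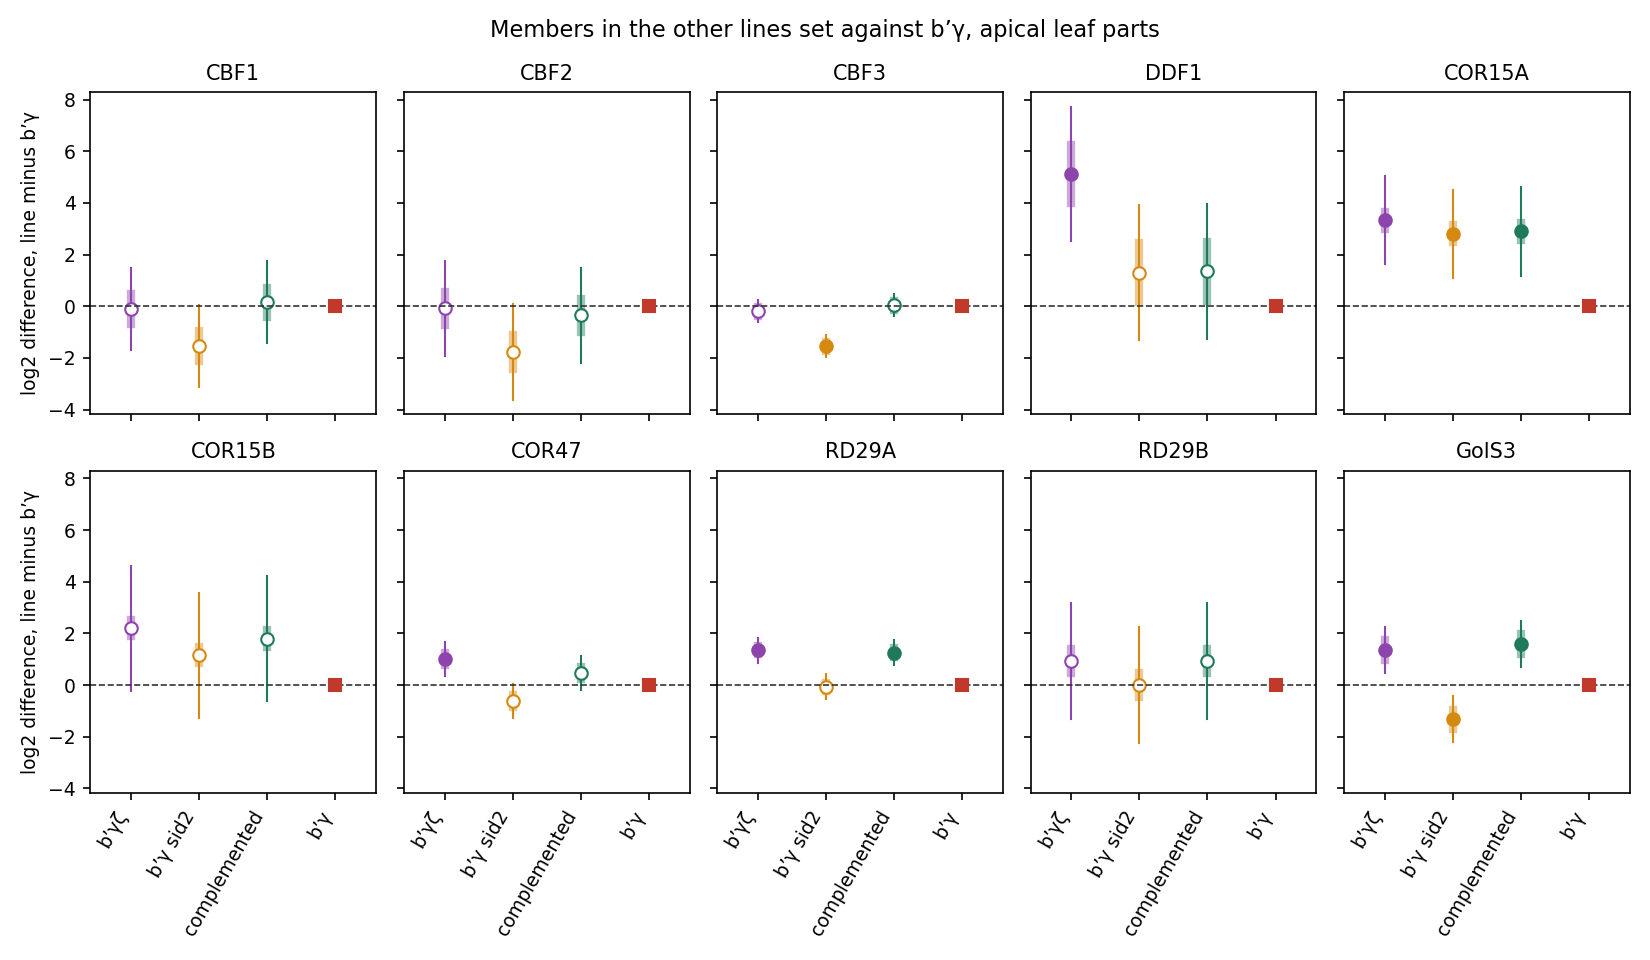
Log2 difference of each gene in apical parts of b’γζ, b’γ sid2 and complemented plants minus b’γ (red square at 0), with points, bars and lines as in the plot against WT. COR15A is higher by 2.81 to 3.33 in all 3 lines, while CBF3 and GolS3 are lower in b’γ sid2.

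The other pairs of lines were compared after the values had been seen, and they leave out both WT and b’γ. Against b’γζ, differences in b’γ sid2 were -1.36 for CBF3, -1.64 for COR47, -1.42 for RD29A and -2.68 for GolS3, and all 4 fell by the largest-error test. These 4 members stand beside 0.68% of listed genes that fell in this comparison. Against complemented plants, CBF3 fell by 1.59 and RD29A by 1.33 in b’γ sid2, and GolS3 fell with a difference of -2.91, which is 3 members where 0.565% of listed genes fell. Between b’γζ and complemented plants 0 members passed, where 0.455% of listed genes did. In that comparison DDF1 was 3.78 higher in b’γζ and passed with neither error, and it was the 1 member whose 95% interval, from 1.18 to 6.38, left out 0 before adjustment. The other 9 members differed by between -0.25 and 0.54, and for CBF3 the 95% interval was from -0.66 to 0.19.

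Ordered by line, CBF1, CBF3, COR47, RD29A, RD29B and GolS3 were lowest in b’γ sid2, as was CBF2, and COR15A, COR15B and DDF1 were lowest in b’γ. WT had the highest level of 9 members, the exception being DDF1, for which b’γζ was highest. Neighbours in these orders often did not differ beyond their error, as for RD29A in b’γ sid2 and b’γ, for RD29B in the same lines, with a difference of -0.01, and for CBF3 among b’γζ, b’γ and complemented plants.

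The basal parts have no fold changes in the table, but the authors' p-values for interaction bear on whether line differences depended on the leaf part. Both parts of a pool pair came from the same leaves, per the labels. No model is stated for the p-values, and whether the authors modelled the pairs is not given. With 40 residual degrees of freedom, as derived from the values, there would be no term for these pairs. All bounds computed here from the p-values thus treat the 2 parts as independent pools. For 6 of 10 members line differences depended on the leaf part at a deposited corrected interaction p under 0.05, where 42.4% of listed genes did. The deposited values were 1.11e-07 for COR15A, 6.08e-06 for COR15B, 9.07e-06 for RD29A, 0.00846 for RD29B, 0.0195 for CBF3 and 0.0308 for COR47. The deposited interaction p of the other 4 were 0.175 for GolS3, 0.606 for CBF1, 0.623 for CBF2 and 0.975 for DDF1, which does not show that their line differences were equal in both parts.

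Together the p-values of genotype and interaction bound how far basal line differences ran parallel to apical ones. The alignment of both sets is 1 where the 5 lines differ in the same direction and proportion in both parts and 0 where they are unrelated, and its lowest possible value was computed for each gene. It was at least 0.974 for DDF1, 0.953 for GolS3, 0.947 for CBF3, 0.883 for COR47, 0.878 for CBF1, 0.868 for CBF2 and 0.843 for RD29A. For RD29B it could be as low as 0.555, for COR15A 0.522 and for COR15B 0.369, beside a median lowest value of 0.626 over all listed genes. The spread of the lines in basal parts was between 0.716 and 1.40 times the apical one for CBF3 and between 0.732 and 1.37 times for GolS3. For COR15A the same ratio could lie anywhere between 0.282 and 3.55. The CBF3 and GolS3 differences among the 5 lines were thus also present in basal parts, though no single line can be read from them, while the p-values leave the basal pattern of COR15A and COR15B wide.

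Averaged over the lines, 3 members also differed between leaf parts at a deposited corrected tissue p under 0.05, where 54.1% of listed genes did. The deposited tissue p was 7.43e-10 for RD29A, 2.50e-06 for RD29B and 0.00121 for COR15A. The size of the mean difference was between 0.539 and 0.984 log2 units for RD29A and between 0.928 and 3.07 for RD29B, and the table does not give which part was higher.

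**Figure D4:**
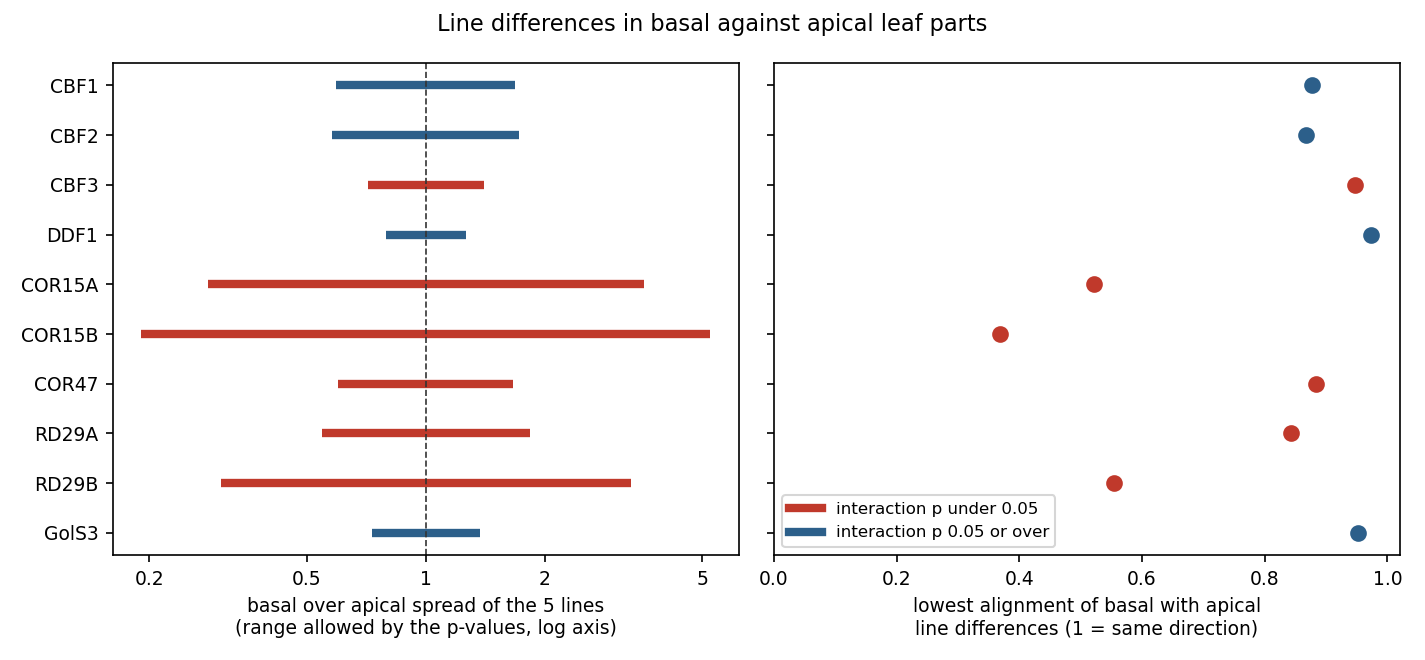
For each member, the range that the deposited p-values allow for the spread of the 5 lines in basal over apical parts (left, log axis) and the lowest alignment of basal with apical line differences (right, no unit), coloured by whether the corrected interaction p was under 0.05. DDF1, GolS3 and CBF3 have the narrowest ranges and alignments of at least 0.947, and COR15B has the widest range.

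Further genes of the cold pathway were taken from lists chosen with earlier results of these data known. Of 26 other CBF regulon and cold-regulated genes, 22 were listed, of which 11 fell in b’γ (6.4% of all listed genes), 0 in b’γζ (0.647%), 6 in b’γ sid2 (2.54%) and 0 in complemented plants (0.433%). At the 2-fold limit alone the counts of lower genes were 12 (16.2% of all listed genes), 1 (2.92%), 10 (5.56%) and 3 (2.22%) in the same order, and 0 were higher in any. The median log2 fold changes were -1.42 in b’γ, -0.38 in b’γζ, -0.95 in b’γ sid2 and -0.62 in complemented plants. COR413IM1, a chloroplast membrane protein, had the lowest deposited value in b’γ, -2.71, and was at -0.29 in b’γζ, -0.96 in b’γ sid2 and -0.44 in complemented plants. KIN1 and KIN2, small hydrophilic proteins encoded by neighbouring copies, fell in b’γ with deposited values of -2.25 and -2.21, and stood between -0.26 and -0.69 in the other 3 lines. LTI30, a dehydrin, fell in b’γ (deposited value -2.18) and in b’γ sid2 (-2.84), with -0.85 in b’γζ and -1.25 in complemented plants. COR413IM1, KIN1 and KIN2 thus had values by line like those of COR15A, and LTI30 like those of COR47 and RD29A.

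Of 7 listed galactinol and raffinose genes, 2 rose (7.92% of all listed genes) and 0 fell (6.4%) in b’γ. GolS4, a relative of GolS3, had deposited values of 4.38 in b’γ, -0.51 in b’γζ, -1.55 in b’γ sid2 and 1.15 in complemented plants, and rose in b’γ, where GolS3 fell. DIN10, a raffinose-family gene known from dark-induced senescence, rose by 1.71 in b’γ and fell in both b’γζ (deposited value -1.37) and b’γ sid2 (-1.42).

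Among 12 listed DREB factors outside the members, 2 fell (6.4% of all listed genes) and 1 rose (7.92%) in b’γ. In b’γζ 1 fell (0.647%), in b’γ sid2 4 fell (2.54%) and in complemented plants 0 passed. RAP2.1, a repressor of cold-regulated genes, fell in b’γ (deposited value -1.37) and b’γ sid2 (-1.28). DREB2C, a heat-responsive factor, fell in b’γζ (-1.04) and b’γ sid2 (-1.70), and DREB2B fell in b’γ sid2 (-1.11), all deposited values. DEAR1, listed as AT3G50260, rose by 1.27 in b’γ and fell by 1.63 in b’γ sid2. TINY2 fell by 2.92 in b’γ, and TINY stood at -2.99 there in the deposited table without passing. CBF4, the drought-responsive relative of the CBF genes, had deposited values of -0.39 in b’γ, 1.45 in b’γζ, 1.09 in b’γ sid2 and 0.12 in complemented plants and passed in none. The 4 other factors listed, DREB2A, ERF034 (AT2G44940), DEAR2 and RAP2.6, passed in no line, and RAP2.6 had the highest deposited value, 3.59 in b’γ sid2.

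Of 20 listed upstream regulators of CBF, 1 fell (6.4% of all listed genes) and 1 rose (7.92%) in b’γ, which is near these shares. In b’γ sid2 1 fell (2.54%), and 0 passed in b’γζ or complemented plants. MYB15, a repressor of CBF genes, rose in b’γ with a deposited value of 4.39, and was at 2.04 in b’γζ, 1.95 in b’γ sid2 and 1.60 in complemented plants. OST1, the kinase that activates the CBF inducer ICE1, fell by 1.01 in b’γ, and ICE1 itself had deposited values between -0.02 and 0.22. SOC1, a flowering factor that lowers CBF transcripts, fell by 1.74 in b’γ sid2. Of 5 abscisic acid bZIP factors, which bind the ABRE, 0 passed in b’γ, 1 fell in b’γζ (0.647% of all listed genes), 2 in b’γ sid2 (2.54%) and 0 in complemented plants (0.433%). ABF1 had deposited values of -0.22 in b’γ, -1.14 in b’γζ, -1.62 in b’γ sid2 and -0.89 in complemented plants. ABI5 fell in b’γ sid2, and its deposited value in b’γ was -0.86.

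Of 7 listed gibberellin genes, from families that hold known CBF or DDF1 targets, 2 fell in b’γ against WT (6.4% of all listed genes) and 0 passed in the other lines. Whether each of the 7 is itself a target was not tested. The deposited values in b’γ were -4.22 for GA2OX1 and -2.99 for GA2OX8, both gibberellin 2-oxidases. In b’γζ, the line in which DDF1 rose, 1 of the 7 was at least 2-fold above WT, as were 4.69% of all listed genes. That gene, GA2OX6, another 2-oxidase, had deposited values of 2.09 in b’γ, 2.28 in b’γζ, 0.68 in b’γ sid2 and 1.23 in complemented plants. Against b’γ, GA2OX1 and GA2OX8 rose in b’γζ, by 3.78 and 3.31, and in complemented plants, by 3.71 and 3.02. In b’γ sid2 GA2OX1 rose by 4.32 against b’γ and GAI, a DELLA repressor of gibberellin responses, by 1.05. GA2OX7, the oxidase known as a DDF1 target, was not among the listed genes.

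Of 11 listed clock genes, 3 fell in b’γζ (0.647% of all listed genes), 5 in b’γ sid2 (2.54%) and 3 in complemented plants (0.433%). In b’γ 0 fell (6.4%) and 1 rose (7.92%). PRR5, which with its relatives lowers CBF transcripts, had deposited values of 0.42 in b’γ, -1.82 in b’γζ, -2.90 in b’γ sid2 and -1.51 in complemented plants. PRR9, a morning repressor of the same family, had 0.11, -1.43, -2.76 and -1.51 in that order of lines in the deposited table. CCA1, a morning factor that raises CBF transcripts, had deposited values of -0.28, -1.16, -2.04 and -1.27 in the same order. Beside these, CBF1 had -1.62, -1.72, -3.15 and -1.47 in the same deposited order, and in b’γ none of these 4 genes rose or fell. PRR5 was under the adjusted p threshold with the largest error in b’γ, but short of the 2-fold limit. With the equal-parts error CBF1 passed in b’γ, and CBF3, at -1.54, fell there with the largest error. RVE8, an activator of evening genes, rose in b’γ, with a deposited value of 1.62, and was at 0.36 in b’γζ, 0.72 in b’γ sid2 and -0.20 in complemented plants. The hour of harvest is not given in the sources used here, and the part of the clock genes in the CBF values was not tested.

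Of 12 listed touch and rapid stress genes, which touch or cold is known to raise together with CBF genes, 5 were at least 2-fold higher in b’γ (17% of all listed genes). At this limit 7 were higher in b’γζ (4.69%), 4 in b’γ sid2 (6.55%) and 2 in complemented plants (2.63%). Lower by the same limit were 2 in b’γ (16.2% of all listed genes), 0 in b’γζ (2.92%), 2 in b’γ sid2 (5.56%) and 1 in complemented plants (2.22%). By the largest-error test 0 rose in any line. HSFC1, a heat shock factor induced alongside the CBF genes, fell by 1.65 in b’γ, and RAV1 fell by 1.34 in b’γ sid2. Their part in the CBF values was not tested. Of 14 listed markers of mesophyll, guard cells, vasculature, epidermis and trichomes, KAT1 rose by 1.38 (not after centring on the reference genes) and ATML1 fell by 1.51 in b’γ, GL2 rose by 1.05 in b’γ sid2, and 0 passed in b’γζ or complemented plants. Of all listed genes 7.92% rose and 6.4% fell in b’γ, and 2.51% rose in b’γ sid2. The 3 mesophyll markers had a median of -1.37 in b’γ, with values from -1.69 to -0.67, and 0 of them rose or fell there. In the same line COR15A, COR15B, KIN1, KIN2 and COR413IM1 had their lowest values. The part of cell makeup and of cell death in these values was not tested.

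**Figure D5:**
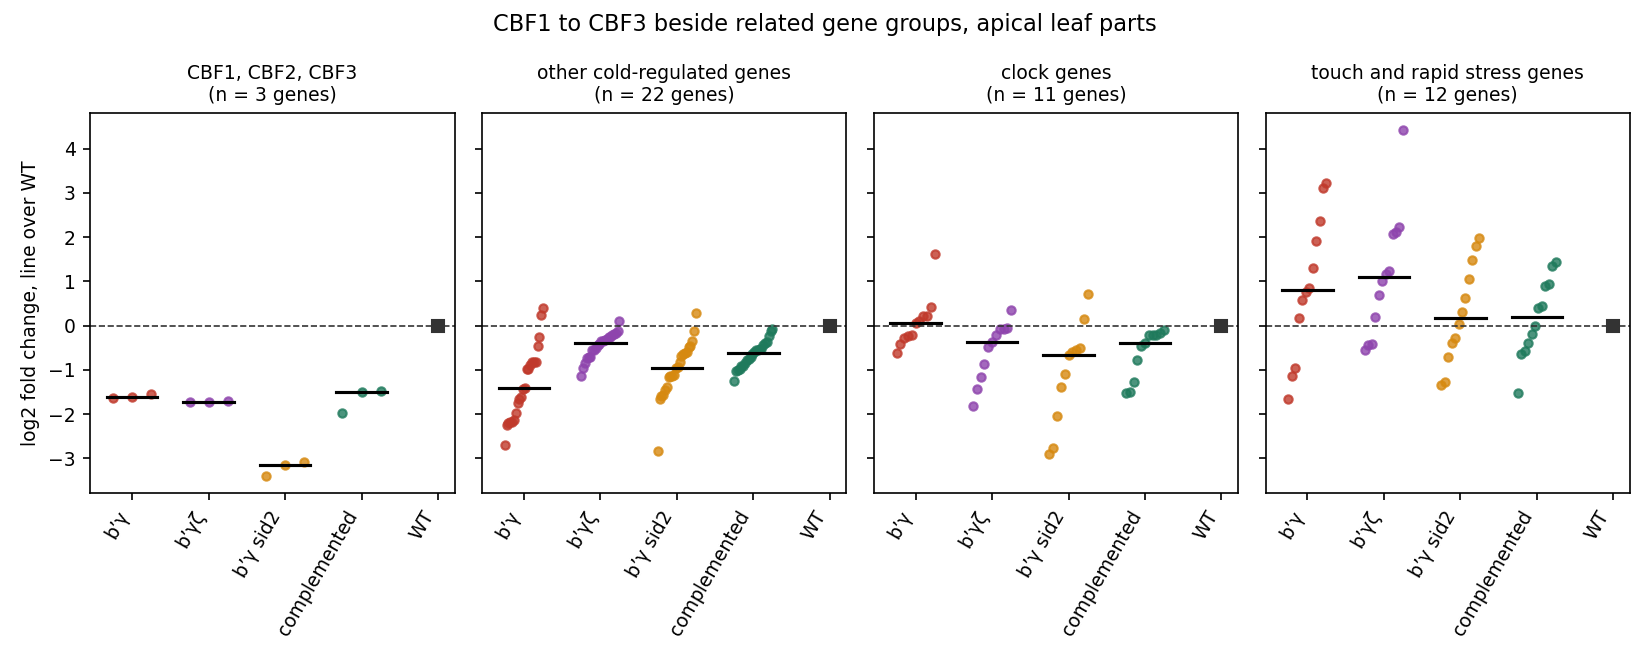
Log2 fold change over WT (black square at 0) in apical parts of 4 lines for the 3 CBF genes, 22 other cold-regulated genes, 11 clock genes and 12 touch and rapid stress genes, 1 point a gene, with the median as a black line. The CBF points lie between -1.63 and -1.54 in b’γ, where the clock genes have a median of 0.07, and cold-regulated genes have their lowest median, -1.42, in b’γ.

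The genes nearest to 3 members were found by Euclidean distance over the 4 deposited fold changes, which share the WT pools, as a description that says nothing of shared function. Nearest to COR15A were AT1G71150 and AT1G16850, both uncharacterized, at distances of 0.405 and 0.406 log2 units, then the SAUR-like genes AT5G18060 and AT4G34760 and the leucine-rich repeat gene AT3G19230, at up to 0.491. All 5 lay closer to COR15A than COR15B did, at 1.26. Nearest to CBF2 was AT3G55580, a gene with regulator of chromosome condensation repeats, at 0.5. CBF1 and CBF3 followed at 0.565 and 0.574, and then the glutaredoxin-C11 gene AT3G62950 at 0.629, the late embryogenesis abundant gene AT1G02820 at 0.752, the transposable element gene AT5G35777 at 0.835 and the uncharacterized AT5G39240 at 0.837. Nearest to DDF1 was AT4G34410, the ethylene-responsive factor RRTF1 (ERF109), at 1.13, with deposited values of -0.03 in b’γ, 3.78 in b’γζ, 1.05 in b’γ sid2 and 1.36 in complemented plants. The transposable element gene AT3G33076 stood at 1.7, another ethylene-responsive factor, ERF019 (AT1G22810), at 2.11, AT5G28335 at 2.19 and SKS2 (AT5G51480), a monocopper oxidase-like gene, at 2.26, and no other member was nearer to DDF1 than 6.72.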

How the data were processed

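Only 1 table was used, with 13 columns. In it are log2 fold changes of apical leaf parts, as the authors deposited them, and the authors' deposited p-values for genotype, tissue and interaction, uncorrected and corrected. The base of the logarithm was derived from steps of 0.2 between low genes. Per the submitters' processing notes bcl2fastq, DESeq and the build TAIR10 were used, with no versions named. The deposited corrected p-values follow from the uncorrected ones by the Benjamini-Hochberg method over 25801 genes, and only genes with a corrected genotype p of at most 0.05 are listed.

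For the largest-error test, F values (4 and 40 degrees of freedom) were computed from the p-values. With the apical fold changes they bound the residual variance of a gene, with line means within 20 log2 units. Contrasts used 40 degrees of freedom and were adjusted over 25801 genes. The model was checked on 159 genes at 0 in 3 lines, of which 69 had F of genotype and interaction equal within 2%. That equality does not depend on the residual degrees of freedom. In 66 of these the F of tissue was equal too, which does depend on them. The rest of the 159 genes did not match, so the check bears on the model only in part.

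The 3 comparisons that leave out WT and b’γ were added after the values were seen. Members, lists and tests were chosen with earlier results of these data known. By the rule for named genes, all members, all DREB factors and at most 4 genes of any other list that passed are named, with the 5 nearest genes to COR15A, CBF2 and DDF1. Outside the rule, B’γ, B’ζ, ICS1, ICE1, GA2OX6, GA2OX7 and GAI were named with their values seen. All 147 list identifiers were found in RefSeq (TAIR10.1) and 122 in the table. Upstream windows and coding sequences came from TAIR10.1, and the table itself holds no coordinates. Python 3.11.15, numpy 2.4.6, scipy 1.17.1, pandas 2.3.3 and Biopython 1.88 were used.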

Additional observations from a re-analysis of the deposited data

Results flagged for a closer look

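For 6 members the line differences depended on the leaf part, by the interaction term of the authors' model, where 42.4% of all listed genes passed the same threshold. The deposited corrected interaction p was 0.0195 for CBF3, 1.11e-07 for COR15A, 6.08e-06 for COR15B, 0.0308 for COR47, 9.07e-06 for RD29A and 0.00846 for RD29B. The term covers all 5 lines at once, so it does not say which line differed between parts or whether size or pattern differed. It also treats the paired parts as independent pools.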

How the results depend on the processing

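Leaving out a replicate was not run, since values per library were not used here, and depth is unknown. No paired analysis was possible because the table holds no values per library, although the labels pair apical and basal pools. Of 630 member values under alternatives 577 kept their side of the threshold, 15 no longer passed, 38 newly passed and 0 passed in the opposite direction. Some small values that did not pass changed sign. CBF1 in b’γζ against b’γ, for one, moved from -0.10 to 0.17 after centring on the reference genes. With the 2-fold limit alone, lower members against WT numbered 9 for b’γ (16.2% of listed genes), 6 for b’γζ (2.92%) and 7 for complemented plants (2.22%), and 1 was higher in b’γ sid2 (6.55%) and 1 in complemented plants (2.63%), DDF1 in both. By the same limit, against b’γ, 3 were higher (16.1%) and 4 lower (15.8%) in b’γ sid2 and 5 higher in complemented plants (12.9%). With the equal-parts error 9 were lower in b’γ (15.5%) and 5 in b’γζ (1.62%) against WT, and 2 were higher (15.4%) and 4 lower (15.3%) in b’γ sid2 against b’γ. With a 4-fold limit 3 were lower for b’γ (2.31%), 1 for b’γζ (0.0932%) and 1 for complemented plants (0.0713%) against WT, and against b’γ 2 were higher in b’γζ (1.42%), 0 lower in b’γ sid2 (4.29%) and 1 higher in complemented plants (1.34%). Fewer or more calls follow from the construction of these limits. Centred on 6 listed reference genes, whose medians were 0.18 for b’γ, -0.089 for b’γζ, -0.03 in b’γ sid2 and -0.06 in complemented plants, 1 member was lower in b’γ sid2 against b’γ (6.13% of listed genes), and KAT1 no longer passed in b’γ against WT.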
